A study of Mus musculus with 8 samples.

Results

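The core loop of the circadian clock was examined as 10 genes, *Per1*, *Per2*, *Per3*, *Cry1*, *Cry2*, *Arntl*, *Clock*, *Npas2*, *Bhlhe40* and *Bhlhe41*, taken by symbol from the 17500 genes of the deposited table. In Rbfox2-/- retinas, *Per1* and *Per2*, which encode repressors of the loop, and *Cry2*, which encodes another, were lower in all 4 mice than in any of the 4 controls, by 16.5%, 25.6% and 10.5%. *Arntl*, which encodes the activator BMAL1, was 17.8% higher, again without overlap. Over all genes tested, the groups did not overlap for 7.03%. None of the 10 genes had an adjusted p under 0.05 in the quasi-likelihood test of edgeR, adjusted by Benjamini-Hochberg over all genes, where *Per1* came nearest (0.0853). With DESeq2 5 of them did, beside 2.8% of all genes. In the edgeR quasi-likelihood test 5 had an unadjusted p under 0.01, and 3 without the female mice M901 and M902.

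The clock is a feedback loop of transcription. BMAL1 (*Arntl*) pairs with CLOCK or NPAS2 and activates genes that carry E-boxes, among them the *Per* and *Cry* genes, whose proteins return to the nucleus as a complex and repress BMAL1:CLOCK, and BHLHE40 and BHLHE41 repress at the same E-boxes. A second loop, of REV-ERB and ROR nuclear receptors, sets the level of *Arntl*, and D-box binding factors act on the *Per* genes. The retina holds clocks of its own, which are known for rhythms in dopamine and melatonin release and in photoreceptor sensitivity, and light resets them in part through *Per* induction.

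Whole retinas of 8 mice on a C57BL/6J background, all 6 months old, were sequenced after poly(A) selection, with 1 library for each mouse. The Rbfox2-/- group (M893, M901, M902 and M909; "Rbfox2 KD" in the labels) was Rbfox2 fl/fl with 1 copy of a tamoxifen-inducible Cre that is active in many tissues and removes floxed exons of *Rbfox2*, a splicing regulator, and tamoxifen had been given 4 months earlier. The control group (M833, M894, M896 and M898) is labelled only as control. The study's methods name age-matched Rbfox2 fl/+ mice as controls and corn oil as the vehicle, while the labels give tamoxifen for every mouse, controls included. The methods also state that tamoxifen-treated mice lived singly, so that, if the controls did not receive the drug, genotype, Cre, tamoxifen and housing cannot be told apart. Retinas were dissected in the morning at 1 time of day in a light/dark cycle. The libraries therefore give 1 point of the daily cycle, and a shift in timing and a change in level cannot be told apart, nor can fewer cells of a type and less RNA per cell.

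Total counts per library ranged from 160630226 to 211283591, and 16797 genes passed the filter on low counts, all 10 clock genes among them. Levels are given in CPM, the count relative to the TMM-normalized library total, and fold changes are log2 of Rbfox2-/- over control. *Rbfox2* itself was at 53.6 to 59.4 CPM in the Rbfox2-/- libraries and at 144 to 157 CPM in the controls, a log2 fold change of -1.41, so that the libraries match their labels and the transcript was reduced but still detected. M901 and M902 stood apart in *Xist*, the RNA of the inactive X chromosome. They were at 1440 and 1739 CPM, against 1.71 to 2.22 CPM in the other 6 mice. *Ddx3y*, a gene of the Y chromosome, was at 0.32 and 0.22 CPM in M901 and M902 and at 60.5 to 69.5 CPM in the other 6. By both genes M901 and M902 were female and the other 6 mice, all controls among them, male. Sex was thus uneven between the groups, and results for the clock genes are therefore also given without M901 and M902. Over all genes, 11 had an adjusted p under 0.05, which is 0.0655% of those tested, and the median log2 fold change was 0.0016.

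Promoters are shown first because the loop acts through short motifs in them. The RefSeq table of promoters (build GRCm38.p6, 250 bases before to 50 after each start) held 12 windows for 8 of the 10 genes, and none for *Per2* and *Bhlhe40*. Each window was searched on both strands for the E-box CACGTG, the related E-prime box CACGTT, the D-box TTATGTAA and the half-site AGGTCA that REV-ERB and ROR proteins bind. No match shared bases with another in these windows. The stretches printed are the part before the annotated exon, except for *Arntl*, whose stretch lies after the start, in the first exon. They are on the strand of the gene and 5′ to 3′, with the motifs in capitals in the orientation in which they lie.
*Per1*, chr11:69098699-69098947, plus strand: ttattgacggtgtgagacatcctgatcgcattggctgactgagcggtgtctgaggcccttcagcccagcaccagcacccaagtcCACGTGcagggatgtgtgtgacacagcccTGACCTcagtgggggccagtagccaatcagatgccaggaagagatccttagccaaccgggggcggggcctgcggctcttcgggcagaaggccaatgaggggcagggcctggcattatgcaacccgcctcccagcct
*Cry1*, chr10:85185065-85185304, minus strand: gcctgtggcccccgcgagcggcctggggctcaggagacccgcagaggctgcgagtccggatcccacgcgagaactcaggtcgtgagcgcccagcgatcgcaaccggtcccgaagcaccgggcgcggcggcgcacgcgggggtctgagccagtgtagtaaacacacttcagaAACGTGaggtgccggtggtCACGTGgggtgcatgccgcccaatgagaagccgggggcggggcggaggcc
*Cry2*, chr2:92434070-92434319, minus strand: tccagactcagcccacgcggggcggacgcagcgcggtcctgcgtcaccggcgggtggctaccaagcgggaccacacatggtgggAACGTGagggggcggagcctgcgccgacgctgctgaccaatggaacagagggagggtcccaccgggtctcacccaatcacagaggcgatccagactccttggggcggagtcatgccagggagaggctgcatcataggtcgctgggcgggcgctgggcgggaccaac
*Bhlhe41*, chr6:145865559-145865670, minus strand: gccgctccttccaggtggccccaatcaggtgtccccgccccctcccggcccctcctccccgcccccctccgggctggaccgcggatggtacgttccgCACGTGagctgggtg
*Per3*, chr4:151044666-151044915, minus strand: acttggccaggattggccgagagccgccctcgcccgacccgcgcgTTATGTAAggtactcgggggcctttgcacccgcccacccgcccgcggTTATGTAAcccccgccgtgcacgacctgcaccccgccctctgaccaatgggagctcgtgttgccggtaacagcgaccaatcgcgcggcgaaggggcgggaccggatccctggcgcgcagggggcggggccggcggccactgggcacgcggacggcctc
*Arntl*, chr7:113207530-113207559, plus strand, around the half-site: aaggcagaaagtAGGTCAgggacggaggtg

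The 3 windows with the E-box itself were those of *Per1*, 166 bases before the start, *Cry1*, 60 bases before it, and *Bhlhe41*, 153 bases before it, and 7.15% of all 32851 windows of this length held the same letters. The E-prime box lay 79 bases before the start of *Cry1* and 166 bases before that of *Cry2*, read there as AACGTG, and 4.68% of windows held it. *Per3* carried 2 D-boxes, 205 and 158 bases before the start, against 0.938% of windows with one. The half-site stood in 16.3% of windows and was found 32 bases after a start of *Arntl*, 119 bases before a start of *Clock* and 137 bases before the start of *Per1*, the last 2 as TGACCT. The genes with an E-box or E-prime box in these windows were thus *Per1*, *Cry1*, *Cry2* and *Bhlhe41*, and each of these 4 had a negative log2 fold change, as had *Per3*, whose window held neither, and *Per2* and *Bhlhe40*, for which no window was searched. These matches describe letters in a window and not binding.

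The question that the comparison addresses is whether the loss of *Rbfox2* in the adult animal leaves transcripts of the retina altered months later. Among the activators, *Arntl* (chromosome 7, 113207465 to 113314126 of GRCm38) was at 121, 113.9, 109 and 110.1 CPM in M893, M901, M902 and M909, and at 98.2, 105, 92.7 and 89.6 CPM in M833, M894, M896 and M898 of the control group. The lowest Rbfox2-/- retina thus lay above the highest control, M894. The mean was 113.5 ± 5.49 CPM (SD, n = 4) against 96.4 ± 6.77 CPM (SD, n = 4), a log2 fold change of 0.24 (SE 0.054, adjusted p = 0.156 by the edgeR quasi-likelihood fit). With DESeq2 the adjusted p was 0.00623 and with edgeR's likelihood ratio test 0.0325. Without M901 and M902 the log2 fold change was 0.26, with an adjusted p of 0.575 by the edgeR quasi-likelihood fit.

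The partners of BMAL1 overlapped between the groups. *Clock* (chromosome 5, 76209868 to 76304792), which encodes the main partner, was at 167.5, 171.8, 163.3 and 170.1 CPM in M893, M901, M902 and M909 and at 163.5, 169.6, 162.4 and 153.7 CPM in M833, M894, M896 and M898. Its log2 fold change was 0.051, with a 95% interval from -0.029 to 0.13. *Npas2* (chromosome 1, 39193731 to 39363236), which encodes a partner that can stand in for CLOCK, was at 4.17 to 5.03 CPM in Rbfox2-/- and 4.19 to 5.2 CPM in control retinas. Its log2 fold change was 0.016, with an interval from -0.2 to 0.24 that is wider than that of *Clock* at its lower level, and its sign turned when any of M893, M909, M833 or M898 was left out.

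**Figure D1:**
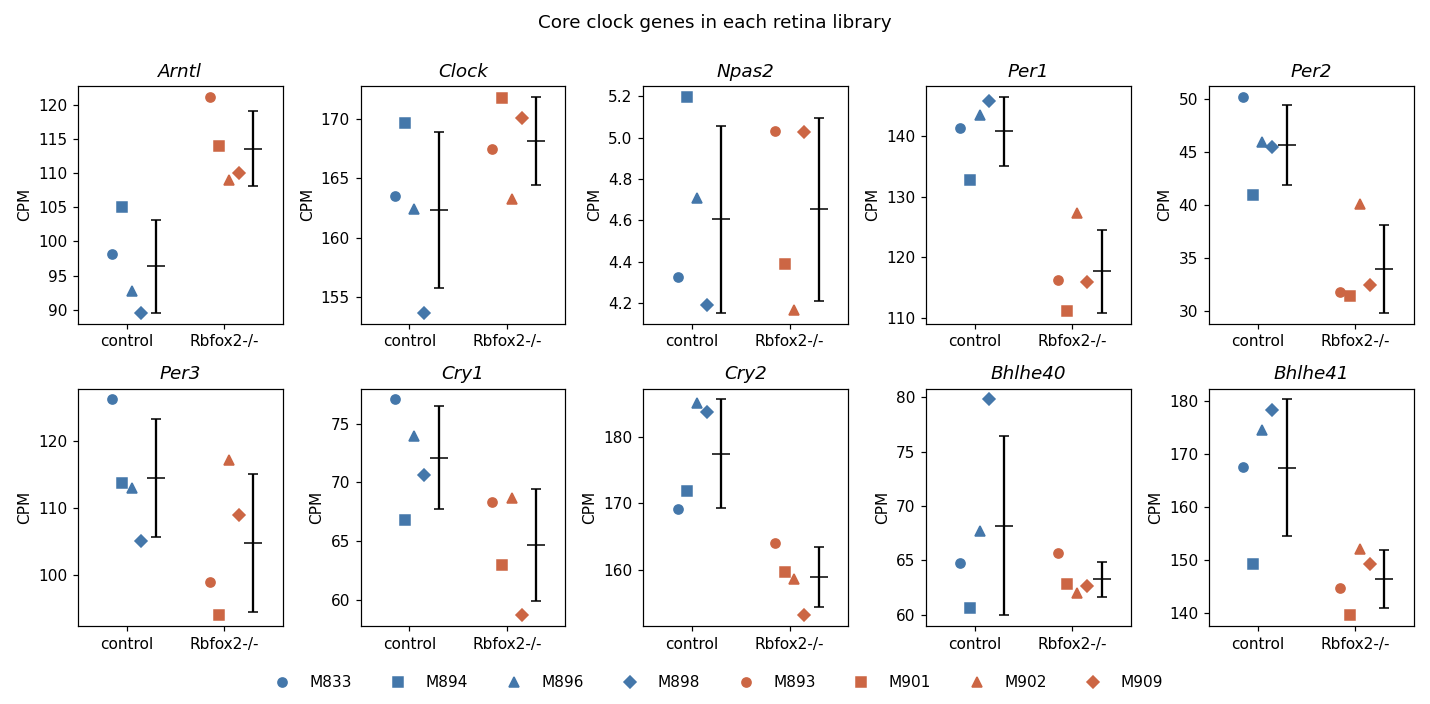
Level of each of the 10 clock genes in each retina, in CPM on a vertical axis that does not start at 0; blue symbols are controls, orange symbols Rbfox2-/- mice, and the black bars give the mean and SD of 4 mice. *Per1*, *Per2*, *Cry2* and *Arntl* show no overlap between the groups, with M902 the Rbfox2-/- mouse nearest the controls for *Per1* and *Per2*.

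The period genes encode the repressors that accumulate each day. *Per1* (chromosome 11, 69095217 to 69109960) was at 116.2, 111.1, 127.2 and 115.9 CPM in M893, M901, M902 and M909, and at 141.3, 132.7, 143.4 and 145.8 CPM in M833, M894, M896 and M898. The nearest mice of the 2 groups were M902 and M894. The mean was 117.6 ± 6.82 CPM (SD, n = 4) against 140.8 ± 5.72 CPM (SD, n = 4), a log2 fold change of -0.26 (SE 0.047, adjusted p = 0.0853 by the edgeR quasi-likelihood fit). DESeq2 gave an adjusted p of 0.000209 and the likelihood ratio test 0.00274.

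*Per2* (chromosome 1, 91415982 to 91459324) had the largest fold change of the 10 genes. It was at 31.8, 31.4, 40.1 and 32.5 CPM in M893, M901, M902 and M909, and at 50.2, 41, 46 and 45.5 CPM in M833, M894, M896 and M898. In 3 of the Rbfox2-/- retinas it was thus between 31.4 and 32.5 CPM, while M902 lay just below the lowest control, M894. The mean was 34 ± 4.13 CPM (SD, n = 4) against 45.7 ± 3.78 CPM (SD, n = 4), a log2 fold change of -0.43 (SE 0.087, adjusted p = 0.116 by the edgeR quasi-likelihood fit). Without M902 the log2 fold change was -0.52 and the adjusted p 0.0432, the one setting that left out mice in which a member passed. With DESeq2 and all mice the adjusted p was 0.000254. Without both M901 and M902 the log2 fold changes of *Per1* and *Per2* were -0.28 and -0.51, with adjusted p of 0.392 and 0.204 by the edgeR quasi-likelihood fit.

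*Per3* (chromosome 4, 151003652 to 151044665), the period gene that is least needed for rhythms, was at 99, 94, 117.1 and 108.9 CPM in M893, M901, M902 and M909 and at 126.1, 113.7, 113 and 105 CPM in M833, M894, M896 and M898. M902 lay above 3 of the 4 controls. The log2 fold change was -0.13, with a 95% interval from -0.29 to 0.036.

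The cryptochromes repress BMAL1:CLOCK most directly. *Cry2* (chromosome 2, 92403646 to 92434043) was at 164.1, 159.7, 158.6 and 153.1 CPM in M893, M901, M902 and M909, and at 169.2, 171.9, 185.2 and 183.8 CPM in M833, M894, M896 and M898. M893 was the highest Rbfox2-/- retina and M833 the lowest control. The mean was 158.9 ± 4.5 CPM (SD, n = 4) against 177.5 ± 8.17 CPM (SD, n = 4), a log2 fold change of -0.16 (SE 0.039, adjusted p = 0.181 by the edgeR quasi-likelihood fit and 0.0214 from DESeq2). *Cry1* (chromosome 10, 85131700 to 85185064) was at 68.3, 63, 68.6 and 58.7 CPM in the Rbfox2-/- retinas and at 77.1, 66.8, 74 and 70.6 CPM in the controls, in the same order of mice. M894, the lowest control, lay below M893 and M902, so that the groups overlapped, although the log2 fold change was also -0.16 (SE 0.061, adjusted p = 0.322 by the edgeR quasi-likelihood fit).

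*Bhlhe41* and *Bhlhe40* (DEC2 and DEC1) encode repressors that compete for E-boxes. *Bhlhe41* (chromosome 6, 145858243 to 145865558) was at 144.7, 139.6, 152.2 and 149.3 CPM in M893, M901, M902 and M909, and at 167.6, 149.3, 174.4 and 178.3 CPM in M833, M894, M896 and M898. The overlap rests on the control M894 alone, which matched M909 and lay below M902. The log2 fold change was -0.19 (SE 0.055, adjusted p = 0.224 by the edgeR quasi-likelihood fit and 0.0477 from DESeq2). *Bhlhe40* (chromosome 6, 108660629 to 108666925) was at 62 to 65.6 CPM in Rbfox2-/- retinas and at 60.6 to 79.8 CPM in controls, with a log2 fold change of -0.11. Without the highest control, M898, that difference was -0.024.

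**Figure D2:**
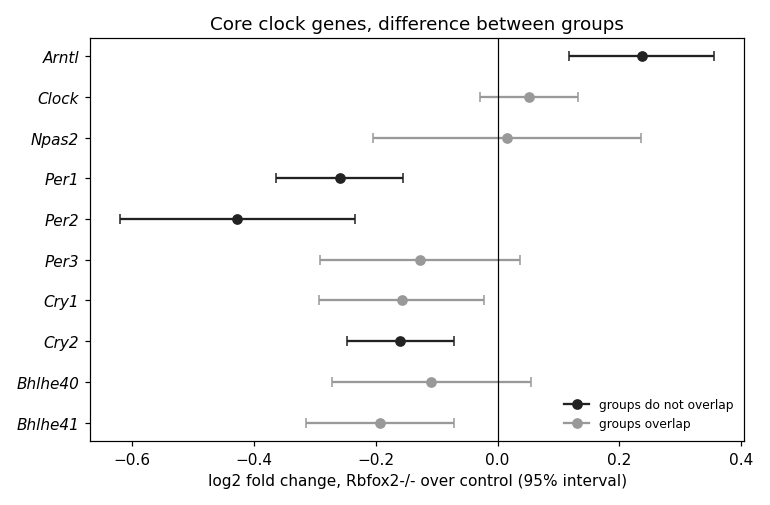
Log2 fold change of each clock gene, Rbfox2-/- over control, from edgeR's quasi-likelihood fit on 4 against 4 mice; bars are 95% intervals, unadjusted, and black marks genes whose groups did not overlap. *Arntl* lies above 0 with its whole interval, and *Per1*, *Per2*, *Cry1*, *Cry2* and *Bhlhe41* lie below 0.

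Counted over the loop, 7 of 10 genes had a negative log2 fold change, against 49.3% of all genes tested, and the median was -0.14 against 0.0016. With an unadjusted p under 0.01, the threshold the study used, there were 4 lower genes (*Per1*, *Per2*, *Cry2* and *Bhlhe41*) and 1 higher (*Arntl*), beside 1.93% of all genes lower and 1.94% higher, or 3.88% together. *Bhlhe41* no longer passed this threshold when M893, M901, M833, M896 or M898 was left out, with unadjusted p of 0.0148, 0.0209, 0.0111, 0.0185 and 0.0173 by the edgeR quasi-likelihood fit, so that 4 of 10 genes remained past it in those fits. With an unadjusted p under 0.05 there were 5 lower and 1 higher, beside 6.87% and 6.42% of all genes, the additional gene being *Cry1*. By the edgeR quasi-likelihood fit with adjustment, 0 of 10 had an FDR under 0.05, where 0.0655% of all genes did. DESeq2 gave 5 of 10 beside 2.8% of genes, edgeR's likelihood ratio test gave 3 (*Per1*, *Per2* and *Arntl*) beside 0.976%, and limma-voom gave 0 beside 0.0655%. The groups did not overlap for 3 lower genes and 1 higher, beside 3.39% and 3.64% of all genes. Without M901 and M902, 3 of 10 (*Per1*, *Per2* and *Arntl*) had an unadjusted p under 0.01, beside 1.48% of genes. In that fit the log2 fold changes of *Cry2*, *Bhlhe41* and *Cry1* were -0.17, -0.19 and -0.19, with unadjusted p of 0.0209, 0.0293 and 0.0401 by the edgeR quasi-likelihood fit. The clock was discussed by the study from these same libraries and the list was made with that known, so that these counts are not independent evidence. The exact two-sided permutation test over the 70 groupings of 8 mice gave 0.0286, the smallest p that 4 against 4 allows, for *Per1*, *Per2*, *Cry2* and *Arntl*. Groups that do not overlap always give this p, so it adds nothing to the lack of overlap, which 7.03% of all genes showed.

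Counted within single retinas, M901 had 6 of the 10 genes below every control and 2 above, beside 25.2% and 24.4% of all genes tested. M893 had 5 below and 1 above, beside 19.9% and 20.7%. M909 had 4 below and 2 above, beside 22.1% and 22.2%. M902 had 4 below and 1 above, beside 25.5% and 26.7%, and *Npas2* is 1 of its 4. Because *Arntl* and *Per2* are transcribed in opposite phases of the cycle, their ratio was also taken in each mouse. The log2 ratio of *Arntl* over *Per2* in CPM was 1.93, 1.86, 1.44 and 1.76 for M893, M901, M902 and M909, and 0.97, 1.36, 1.01 and 0.98 for M833, M894, M896 and M898. The mean was 1.75 ± 0.21 (SD, n = 4) against 1.08 ± 0.19 (SD, n = 4), and M902 and M894 were again nearest to each other. The ratio combines genes already seen to differ and is given without a test.

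**Figure D3:**
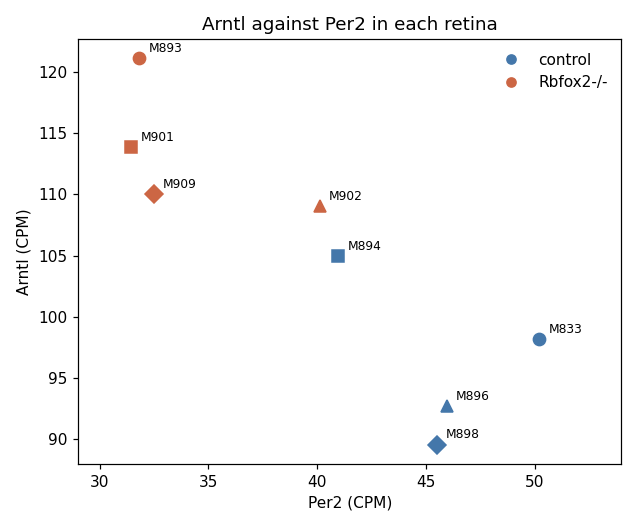
*Arntl* against *Per2* in CPM, 1 point per retina, blue for control and orange for Rbfox2-/-; neither axis starts at 0. The Rbfox2-/- mice lie at the upper left, and M902 and M894 lie next to each other between the remaining mice of their groups.

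Whether the genes also moved together among mice of 1 genotype was examined as the correlation of the deviations of log2 CPM from the group mean over 8 mice, in 6 pairs with exact permutation within groups. *Per1* and *Per2* had a Pearson r of 0.85 (exact permutation p = 0.0451, adjusted p = 0.146) and a Spearman rho of 0.88 (exact permutation p = 0.0469, adjusted p = 0.198), and r was 0.56 without M902 and M894, the mice farthest from the median of *Per1*. *Per2* and *Per3* had an r of 0.74 (exact permutation p = 0.0486, adjusted p = 0.146) and a rho of 0.6 (exact permutation p = 0.174, adjusted p = 0.208). That relation rests on M902 and M833, without which r was -0.0094. It passed when M894 was left out, with an r of 0.84 and an adjusted p of 0.0417 from the same exact permutation.

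For the activators, *Arntl* and *Clock* had an r of 0.73 (exact permutation p = 0.0799, adjusted p = 0.16) and a rho of 0.69 (exact permutation p = 0.101, adjusted p = 0.201), and r was 0.8 without M894 and M893. *Arntl* and *Npas2* had an r of 0.64 (exact permutation p = 0.144, adjusted p = 0.216) and a rho of 0.76 (exact permutation p = 0.066, adjusted p = 0.198), and r was 0.053 without the same mice. Between the arms of the loop, *Per2* and *Arntl* had an r of -0.48 (exact permutation p = 0.243, adjusted p = 0.243) and a rho of -0.62 (exact permutation p = 0.149, adjusted p = 0.208), and r was -0.86 without M902 and M833 and -0.22 without M894. *Bhlhe40* and *Bhlhe41* had an r of 0.69 (exact permutation p = 0.238, adjusted p = 0.243) and a rho of 0.52 (exact permutation p = 0.314, adjusted p = 0.314), and r was -0.21 without M898 and M894. With all mice, none of the 6 pairs had an adjusted p under 0.05.

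By the same deviations, the genes most like *Per2* among 13746 genes with a mean of at least 1 CPM were *BC005537*, *3110070M22Rik*, *Nol7*, *Lin54* and *Pdcd10*, with r from 0.97 to 0.98 over 8 mice. Those most like *Arntl* were *Tmem132a*, *Celf5*, *Dnm2*, *Mtss1* and *Vwa8*, with r from 0.95 to 0.99. These are the highest of many values over few mice and carry no p.

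Levels were compared between genes per length, with the deposited FPKM. In controls *Cry2* was highest at 44.6 ± 2.51 FPKM (SD, n = 4), followed by *Arntl* at 33.3 ± 2.3, *Per1* at 30.4 ± 1.32, *Bhlhe41* at 28.1 ± 2.22, *Cry1* at 24 ± 1.22, *Bhlhe40* at 22 ± 2.83, *Per3* at 19.2 ± 1.2, *Clock* at 16.7 ± 0.66, *Per2* at 7.86 ± 0.56 and *Npas2* at 1.11 ± 0.11 FPKM. The ranges of the 4 controls overlapped between *Arntl* and *Per1*, *Per1* and *Bhlhe41*, *Cry1* and *Bhlhe40*, and *Bhlhe40* and *Per3*, so that the order of these neighbours did not exceed their spread. The order of the means was the same in Rbfox2-/- retinas. There *Arntl* (38.8 ± 2.21 FPKM, SD, n = 4) stood close to *Cry2* (39.5 ± 1.37 FPKM, SD, n = 4), with overlapping ranges, while in controls every mouse had more *Cry2* than *Arntl*. *Clock* and *Npas2*, which encode alternative partners of BMAL1, were at 16.7 and 1.11 FPKM in controls. With CPM divided by the length of an annotated transcript in place of FPKM, *Clock* (21.7 per kilobase) came before *Per3* (19.1 per kilobase), and the order of the other 8 genes was as given.

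**Figure D4:**
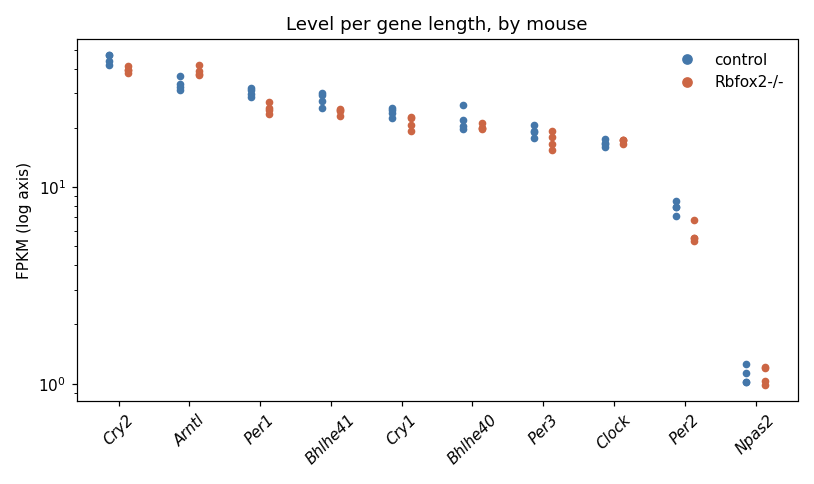
FPKM of the 10 clock genes on a log axis, 1 point per mouse, blue for control and orange for Rbfox2-/-, ordered by the control mean. *Cry2* is highest and *Npas2* lowest in both groups, and the groups separate for *Arntl*, *Per1*, *Per2*, *Cry2* and, on this scale, *Bhlhe41*, whose lowest control was at 25.2 FPKM and highest Rbfox2-/- mouse at 25.1 FPKM.

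RBFOX proteins bind the letters TGCATG in RNA, and sites in 3′ ends of transcripts can bear on the amount of RNA. In the GENCODE M21 annotation, 5 of the 10 genes had TGCATG in the 3′ untranslated region, 1 site each, and 33.6% of the 13582 genes of the table with such a region of at least 100 bases did. The clock genes had 0.25 sites per kilobase against 0.36 over these genes, and their median region was 1741 bases long against 1028. The sites are shown because *Rbfox2* is the targeted gene, with TGCATG in capitals and 12 bases on either side, on the strand of the gene.
*Per2*: tgttgccgtgtcTGCATGgtggcctctgca
*Per3*: gaagttaagcctTGCATGgcaaaaagcttc
*Cry2*: gccatttgtgtgTGCATGcatctgtttaca
*Clock*: tccacacggagaTGCATGctgggcaacagt
*Bhlhe41*: acagttgacattTGCATGgttttgtaacat
The capitals lie on chromosome 1 at 91417089 to 91417094 for *Per2*, chromosome 4 at 151005137 to 151005142 for *Per3*, chromosome 2 at 92405667 to 92405672 for *Cry2*, chromosome 5 at 76214409 to 76214414 for *Clock* and chromosome 6 at 145860189 to 145860194 for *Bhlhe41*. Of the 4 genes whose groups did not overlap, *Per2* and *Cry2* held a site in this region and *Per1* and *Arntl* held none there. Introns and the rest of the exons were not searched, nor were other transcripts of each gene. Binding of the protein was not measured in these libraries.

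Around the loop, 69 other clock genes were listed by role and 66 were tested. With an unadjusted p under 0.01, 4 were lower and 2 higher, which is 9.09% beside 3.88% of all genes. By the edgeR quasi-likelihood fit with adjustment 0 had an FDR under 0.05, 16 had an unadjusted p under 0.05 beside 13.3% of all genes, and DESeq2 gave 4 at an FDR under 0.05 beside 2.8%. The groups did not overlap for 6 of them, beside 7.03% of all genes.

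In the second loop and its D-box factors, 9 of 10 genes had a negative log2 fold change, beside 49.3% of all genes, with a median of -0.14. In this list 5 were lower at an unadjusted p under 0.05, beside 6.87% of all genes, and 2 had a p under 0.01. The counts at a p under 0.01 for this and the following lists of clock genes are unadjusted and stand beside 3.88% of all genes. *Ciart*, which encodes the repressor CHRONO, was at 8.45, 7.09, 8.55 and 8.59 CPM in M893, M901, M902 and M909, and at 13.3, 9.55, 14.7 and 16.3 CPM in M833, M894, M896 and M898. The groups did not overlap, and M894 was again the lowest control. The log2 fold change was -0.72 (SE 0.14, adjusted p = 0.116 by the edgeR quasi-likelihood fit), larger than that of any core gene. *Tef*, which encodes a D-box activator, had a log2 fold change of -0.19 (adjusted p = 0.242 from the same test) with overlapping groups. The most abundant genes of this list, *Rorb* and *Rora*, which encode nuclear receptors that act on *Arntl*, had log2 fold changes of -0.15 and -0.017, and *Rorb* ranged from 289 to 638 CPM within the Rbfox2-/- group alone.

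Of 16 genes for enzymes that set the stability of PER and CRY proteins, 1 had a p under 0.01, and the median log2 fold change was 0.012. It was *Usp2*, a deubiquitinase of clock proteins, at 142 to 174.7 CPM in Rbfox2-/- and 166.8 to 196.7 CPM in control retinas, with a log2 fold change of -0.25 (adjusted p = 0.216 by the edgeR quasi-likelihood fit). *Ddb1*, an adaptor of a ubiquitin ligase, and *Gsk3b*, a kinase, had values of 0.062 and -0.0026. Of 20 genes for cofactors of the 2 complexes none had an unadjusted p under 0.01 in that test and 3 had one under 0.05, near the 13.3% of all genes, 0 passed with DESeq2, and the median was 0.038. The most abundant, *Ddx5* and *Chd4*, had log2 fold changes of 0.037 and -0.053.

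Among 11 genes of light and cAMP input to the *Per* genes, 1 had a p under 0.01. *Adcyap1*, which encodes the peptide PACAP, was at 4.09, 4.67, 3.48 and 3.14 CPM in M893, M901, M902 and M909 and at 2.42, 2.82, 2.88 and 2.61 CPM in M833, M894, M896 and M898. The groups did not overlap at these low levels, and the log2 fold change was 0.52 (SE 0.13, adjusted p = 0.184 by the edgeR quasi-likelihood fit). *Crtc1*, a coactivator of CREB, had a log2 fold change of -0.071.

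Of 9 tested genes listed as rhythmic outputs of the retina, 2 had a p under 0.01. *Wee1*, a kinase gene driven by E-boxes, was at 8.18 to 8.99 CPM in Rbfox2-/- and at 9.25 to 11.8 CPM in control retinas, with a log2 fold change of -0.26 (adjusted p = 0.239 by the edgeR quasi-likelihood fit). *Gngt1*, which encodes the gamma subunit of rod transducin and which the study named from these same libraries, was at 971 to 1058 CPM against 831 to 898.3 CPM, with a log2 fold change of 0.23 (adjusted p = 0.104 from the same test). *Pdc*, the phosducin gene, and *Adcy1*, an adenylyl cyclase gene, had values of -0.13 and 0.045 with overlapping groups.

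**Figure D5:**
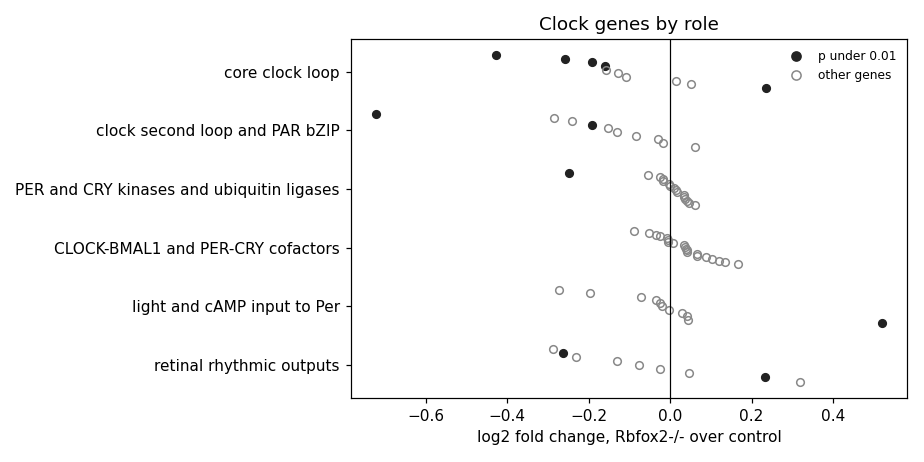
Log2 fold change, Rbfox2-/- over control, of each tested clock gene by role, 1 point per gene; filled points have an unadjusted p under 0.01. Medians are -0.14 for the core loop and for the second loop, and between -0.077 and 0.038 for the other 4 lists.

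Several cell types contribute to these libraries, and markers of some moved with the groups. The counts at an unadjusted p under 0.01 below stand beside 3.88% of all genes by the edgeR quasi-likelihood fit. Summed cone markers were at 943 to 947 CPM in controls and 1006 to 1138 CPM in Rbfox2-/- retinas. Of the 7, 6 had a positive log2 fold change, 1 of them at a p under 0.01. The remaining cone marker was lower, at -0.23, with an unadjusted p under 0.05 in that fit. No cone marker taken singly separated the groups. Summed horizontal cell markers were at 103 to 110 CPM against 85 to 89.6 CPM, with 4 of 5 negative, *Calb1* among them with an FDR under 0.05. No horizontal cell marker but *Calb1* was lower at an unadjusted p under 0.05 in that fit. The remaining marker was higher, at 0.18, with an unadjusted p under 0.05. The cone and horizontal cell sums did not overlap between the groups. For bipolar cells the sums were 1665 to 1804 CPM against 1604 to 1691 CPM, with 6 of 8 negative and 3 at a p under 0.01. For Müller glia they were 6317 to 6972 CPM against 5641 to 6400 CPM, with 4 of 7 negative and 1 at a p under 0.01. Both ranges overlapped. For rods they were 58685 to 62988 CPM against 60978 to 66293 CPM, with 6 of 7 positive and 2 at a p under 0.01. For amacrine cells they were 1463 to 1544 CPM against 1419 to 1514 CPM, with 7 of 9 negative and 1 at a p under 0.01, *Th*, which was higher by a log2 fold change of 0.46, and for ganglion cells 603 to 969 CPM against 765 to 1002 CPM, with 6 of 8 positive. Each list was detected in every mouse, and the part of these differences in the values of the clock genes was not tested.

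Tissue next to the retina was uneven among mice. Summed pigment epithelium markers were at 107 to 396 CPM in controls and 86.5 to 225 CPM in Rbfox2-/- retinas, and ciliary epithelium markers at 131 to 177 against 113 to 157 CPM. Microglia markers were at 63.2 to 69.7 against 55.8 to 70.2 CPM, astrocyte markers at 18 to 18.7 against 15.5 to 19 CPM, and vessel markers at 249 to 278 against 226 to 292 CPM. Lens markers were at 1.56 to 2.63 against 0.99 to 3.45 CPM. The 1 blood marker that passed the filter on low counts was at 1.33 to 3.61 against 0.61 to 1.81 CPM. All of these sums, and the blood marker, overlapped between the groups. Of 8 vessel markers 6 were negative (median log2 fold change -0.25), 1 with an unadjusted p under 0.01 by the edgeR quasi-likelihood fit. Of 6 ciliary epithelium markers 4 were negative, with a median of -0.55. In the vessel, ciliary epithelium and lens lists 1 marker each did not overlap between the groups, beside 7.03% of all genes. No marker of the other lists here separated them. The part of these tissues in the values of the clock genes was not tested.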

How the data were processed

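Retinas of 4 Rbfox2-/- mice and 4 controls were compared, grouped by the genotype labels. The authors aligned reads to mm10 with STAR and took gene counts from uniquely mapped fragments with HTSeq, and the deposited counts are not normalized. The methods name both a RefSeq and an Ensembl annotation. Versions of STAR and HTSeq and the strand setting are not given in the sources used here. The submitters' processing notes name CASAVA 1.8.2 and edgeR. The deposited FPKM of the authors, whose gene lengths are not stated, served for levels between genes. Their normalized values and the fold changes, p-values and FDR of their own comparison were not used.

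Low counts were removed by filterByExpr (edgeR 4.0.16, R 4.3.3), libraries were scaled by TMM, and the groups were tested by quasi-likelihood with no covariate and with Benjamini-Hochberg adjustment over the 16797 genes tested. Each SE is the absolute log2 fold change over the root of F. CPM are computed from the counts, and log2 CPM for correlations and permutations used a prior count of 2. In simulated data with 200 genes altered by a factor of 2 among 16706, 94.5% of these were called, with 8 others. The altered genes were drawn from those above a minimum mean count. The members differed by less, with a log2 fold change of -0.43 for *Per2* as the largest. Recovery of differences of that size was not simulated, so this rate does not apply to the members. Libraries held 160630226 counts or more, and the least abundant member, *Npas2*, had 661 or more counts in each mouse.

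The members and lists were chosen with earlier results of these data known. The genes named are the 10 members, *Rbfox2*, *Xist*, genes of the other clock lists with an unadjusted p under 0.01, the 2 of highest mean per list otherwise, and the 5 most like *Per2* and *Arntl*. An item that this rule covers is left out of the text. *Calb1*, *Th* and *Ddx3y* were named after their values were seen. The settings tried besides were DESeq2 1.42.0, the likelihood ratio test of edgeR, limma-voom (limma 3.58.1), RLE and upper-quartile scaling, no filter, a minimum of 10 counts in all libraries, each mouse left out in turn, M901 and M902 left out or given their own term, and 1 surrogate variable (sva 3.50.0). Coordinates are from GENCODE M21 (GRCm38, which mm10 names).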

Additional observations from a re-analysis of the deposited data

Results flagged for a closer look

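One value among the clock genes stood apart from its group. *Per2* was at 40.12 CPM in M902, against 31.4 to 32.5 CPM in the other 3 Rbfox2-/- retinas, a gap that exceeds Dixon's critical value of 0.829 of the range for 4 mice. Among the 20 groups of 4 mice examined (10 genes in 2 groups), chance alone gives about 1 such value. M902 is also 1 of the 2 mice with *Xist*, and M901, the other, was at 31.4 CPM. Without M902 the log2 fold change of *Per2* was -0.52 in place of -0.43.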

How the results depend on the processing

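Each of the 18 other settings gave the same sign as the main analysis for *Arntl*, *Clock*, *Per1*, *Per2*, *Per3*, *Cry1*, *Cry2*, *Bhlhe40* and *Bhlhe41*. *Clock* was at 0.026 without M898 in place of 0.051, *Per3* at -0.079 without M901 and -0.080 without M833 in place of -0.13, and *Bhlhe40* at -0.024 without M898 in place of -0.11. *Npas2* turned to -0.024 without M893, -0.024 without M909, -0.016 without M833 and -0.027 without M898, within -0.027 to 0.079 without single mice. Without both M901 and M902, *Npas2* was at 0.12, *Clock* at 0.054, *Per3* at -0.14 and *Bhlhe40* at -0.092. With their own term *Npas2* was at 0.13, and with 1 surrogate variable at 0.13, in place of 0.016. The 11 genes called over the table became 460 with DESeq2, 164 with the likelihood ratio test, 1 without M901 and M902, 4 with their own term, 4 with 1 surrogate variable, and 5 to 35 without single mice, with 5 without M893, M901, M909 or M896, 6 without M898, 19 without M894 and 35 without M833. The 651 genes with p under 0.01 became 1073 with DESeq2, 253 without M901 and M902, 296 with their own term, 298 with 1 surrogate variable, and 354 to 995 without single mice, with 383 without M901, 354 without M896, 391 without M898, 985 without M833 and 995 without M909. Of the clock members, DESeq2 called 5, the likelihood ratio test 3, and leaving out single mice 0 to 1 (*Per2* without M902); members with p under 0.01 numbered 4 to 5 without single mice, 3 without M901 and M902, 3 with their own term and 3 with the surrogate variable. Of the other clock genes, DESeq2 called 4, the likelihood ratio test 2 and leaving out single mice 0 to 1, the 1 without M894; those with p under 0.01 numbered 3 with the own term, 3 with the surrogate variable, and 3 to 10 without single mice, 3 without M901 or M898 and 10 without M894. The correlation of *Per2* with *Per3* was 0.84 without M894 and 0.51 to 0.84 without single mice, and that of *Per2* with *Arntl* was -0.22 without M894 in place of -0.48. The scaling and filter alternatives left these counts within 1.5 times. Leaving out mice leaves fewer samples; the other causes were not tested. No paired analysis was possible because the labels give mouse names and no shared replicate numbers. The results rest on 4 mice per group at 1 time of day. Depth bears most on *Npas2*, with 661 or more counts per mouse, as the lowest of the members.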
